A study of Arabidopsis thaliana with 4 samples.

Results

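The 10 genes described here are core components of the circadian clock of Arabidopsis thaliana: CCA1, RVE8, PRR9, PRR7, PRR5, TOC1, GI, ELF3, ELF4 and LUX. They were chosen by locus identifier, out of 32678 loci in the count table. RNA was sequenced from 4 untreated rosette cores of the accession Col-0, the central 1.5 to 2 cm of rosettes of plants aged 31 days, grown in 16 h of light at 22 °C after a cold treatment of the seeds at 4 °C. The 4 libraries form a single group, so levels, their order and their spread between cores could be described, and no treatment was compared. The hour of harvest is not given in the sources used here, and the labels do not state whether each core was a different plant, so p-values cover only differences among these libraries, which may be technical.

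The plant clock is a set of transcription factors and partner proteins, many of which repress other clock genes in turn over the day. At dawn the MYB-related protein CCA1 represses genes that carry the evening element in their promoters, and the related protein RVE8 activates such genes later in the day. PRR9, PRR7 and PRR5 follow one another from morning to afternoon and repress CCA1, and TOC1 does so in the evening. ELF3, ELF4 and LUX form the evening complex, which represses PRR9 and other genes at night, while GI stabilises the F-box protein ZTL, which targets TOC1 and PRR5 for degradation. By these textbook phases CCA1, RVE8, PRR9, PRR7 and PRR5 are called day-phase genes below, and TOC1, GI, ELF3, ELF4 and LUX evening genes.

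The evening element, AAAATATCT, is a site through which the dawn factors act, and the members differed in whether they carried it. In the 1000 bases before the annotated gene start, searched on both strands, it was found in 1 of 5 day-phase genes, PRR5, and in 4 of 5 evening genes, TOC1, GI, ELF4 and LUX. Of the 27443 nuclear protein-coding genes with such a window, 7.24% held it. The 9 matches are printed here because they carry this difference, each with 10 bases on either side, on the strand that reads the element forward, with the element in capitals (sequence from RefSeq, TAIR10.1 assembly).
PRR5, chr5:8359244-8359272, plus strand: ccaaacccaaAAAATATCTaatgctagtg
PRR5, chr5:8358820-8358848, plus strand: tggatttgaaAAAATATCTagtagaattg
PRR5, chr5:8358715-8358743, plus strand: tggagaaaagAAAATATCTagaaaaaatc
TOC1, chr5:24674802-24674830, minus strand: catcttggagAAAATATCTcatgatattt
GI, chr1:8060932-8060960, plus strand: gtaagattttAAAATATCTtaaaagatgt
GI, chr1:8060964-8060992, minus strand: gcccgttgagAAAATATCTaaatgggcct
GI, chr1:8061150-8061178, plus strand: agctcccctcAAAATATCTgtggacatat
ELF4, chr2:16735471-16735499, minus strand: atactacaaaAAAATATCTtgcggattat
LUX, chr3:17182979-17183007, plus strand: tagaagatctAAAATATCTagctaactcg
GI and PRR5 had 3 matches each and the others 1 each. The element of LUX began 53 bases before the annotated start and that of TOC1 151 bases before it, while the first of GI began 809 bases before it.

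The G-box, CACGTG, a site bound by bHLH and bZIP factors such as the light-regulated PIF proteins, had the other distribution. It was found in 4 of 5 day-phase genes, all except PRR5, and in 1 of 5 evening genes, LUX, against 14.8% of all windows. The 7 matches are printed on the strand of the gene, with the G-box in capitals, to set them beside the evening elements.
CCA1, chr2:19245388-19245413, plus strand: gtgtatcagaCACGTGtcgacaaact
RVE8, chr3:2945341-2945366, plus strand: tgaaaacaaaCACGTGcgcaccggga
RVE8, chr3:2945415-2945440, plus strand: gttggatgcgCACGTGtgaaatgcca
PRR9, chr2:19232353-19232378, plus strand: aatagaaaccCACGTGtcatccacat
PRR9, chr2:19232425-19232450, plus strand: aggttaatgaCACGTGttaaggtgga
PRR7, chr5:642216-642241, minus strand: cccaccattaCACGTGtcagttcaaa
LUX, chr3:17182839-17182864, plus strand: cttttcactcCACGTGgctccatctt
The CCA1-binding site, AAAAATCT, was found before PRR9 and PRR5 only, against 21.1% of all windows. The site bound by LUX, GATACG or GATTCG, was found in 2 of 5 day-phase genes, PRR9 and PRR7, and in 5 of 5 evening genes, against 39.8% of all windows. No matches overlapped one another. A match is a run of letters and not a measured binding site, and the annotated PRR5 model holds coding sequence only, so its window may begin inside its transcript.

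**Figure D1:**
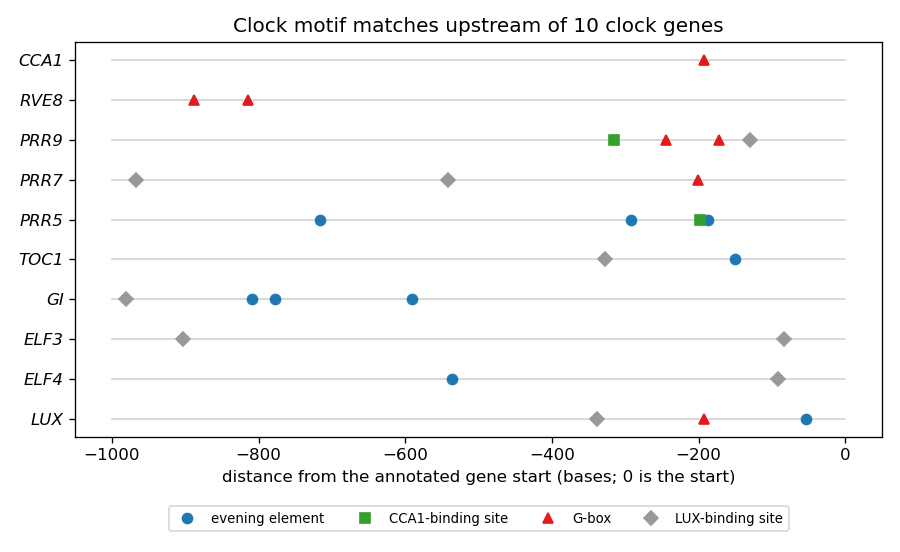
Positions of 4 clock motifs before the annotated start of each of the 10 genes; the x axis is the distance from the start in bases, and each symbol marks the first base of a match. Evening elements stand before 4 of 5 evening genes and, among day-phase genes, before PRR5, and the G-box before 4 of 5 day-phase genes and, among evening genes, before LUX.

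Of the members, 6 had a usable level and are called the measured genes below: PRR7, PRR5, TOC1, GI, ELF3 and ELF4. The table has 1 row per transcript model, and the median over nuclear protein-coding loci of the mean count was 55.5 for those with 1 model and 0.5 for those with 2 or more. CCA1, RVE8, PRR9 and LUX have 2 or 3 models each, so their sums are not levels and enter no comparison. CCA1 had 0, 2, 4 and 1 counts in cores 1 to 4. RVE8 had 5, 4, 3 and 4 counts. LUX, the DNA-binding member of the evening complex, had 8, 5, 11 and 8 counts, all on the first of its 3 models, and PRR9 had 0 counts in every core. These 4 genes therefore say nothing here on how strongly they were expressed.

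The evening genes ELF4, TOC1 and ELF3 filled the top of the order of levels. Levels are given as CPM, the counts on nuclear loci with 1 model rescaled to a library of 1e6 after TMM scaling (a factor that sets the bulk of genes equal between libraries), and as CPM per kb of exon where genes are compared. Library totals ran from 5639486 to 7692788 counts, and the limit that 0 counts allow, 3 counts, equalled 0.418 CPM in the deepest and 0.562 CPM in the shallowest library (counting error only). ELF4 was highest with 56.3 ± 7.28 CPM per kb (SD, n = 4), followed by TOC1 with 45.9 ± 4.78 CPM per kb. ELF3 had 19.8 ± 2.85 CPM per kb, PRR5 8.27 ± 1.46, PRR7 6.57 ± 2.33 and GI 6.08 ± 2.38 CPM per kb. The level of ELF4 exceeded that of 88.9% of nuclear protein-coding genes with 1 model, and that of GI exceeded 52.7% of them.

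Between neighbours in this order, TOC1 and ELF3 did not overlap over the cores (41.8 to 52.3 against 17.0 to 22.3 CPM per kb), and neither did ELF3 and PRR5 (17.0 to 22.3 against 6.29 to 9.44 CPM per kb). ELF4 and TOC1 overlapped (48.7 to 65.1 against 41.8 to 52.3 CPM per kb), although ELF4 was higher within each of the 4 cores. PRR5, PRR7 and GI overlapped one another in their ranges. Within cores PRR7 was higher than GI in 4 of 4, by 1.046 to 1.214-fold, and PRR5 was higher than PRR7 in 3 of 4. With 4 cores the smallest two-sided p of an exact sign permutation is 0.125, so none is given for these differences. On CPM with no length term TOC1 came first and ELF4, whose exons measure 619 bases, came after ELF3. The order of the lower genes also reversed: GI was above PRR7 in 4 of 4 cores, and PRR7 above PRR5 in 4 of 4.

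**Figure D2:**
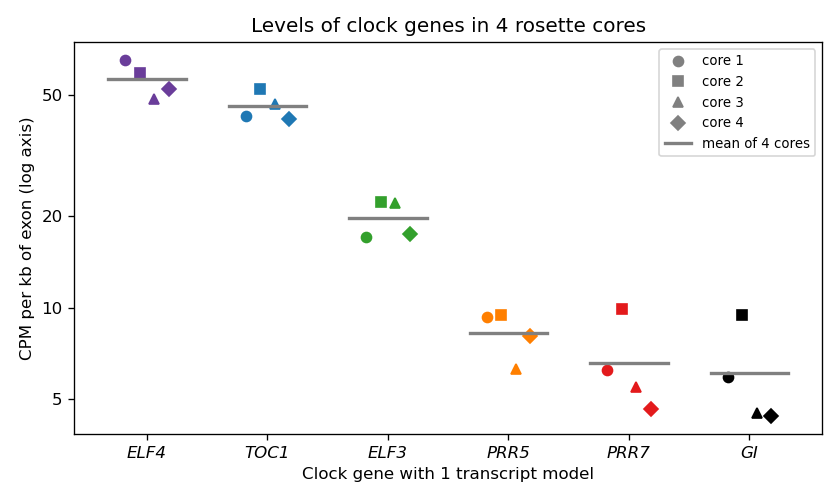
CPM per kb of exon (log axis) of the 6 measured clock genes in each of the 4 cores, with grey bars at the mean of the cores. ELF4 and TOC1 lie above 40 in every core, ELF3 between 17.0 and 22.3, and PRR5, PRR7 and GI below 10.

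Of the day-phase genes, PRR7 (AT5G02810, TAIR10.1, chr5:637681-642030, minus strand), the midday repressor, had 20.2, 32.1, 17.7 and 15.0 CPM in cores 1 to 4, from 145, 217, 114 and 80 counts. Core 2 stood highest and core 4 lowest, 2.14-fold apart, and without core 2 the highest core was 1.36-fold the lowest. PRR5 (AT5G24470, chr5:8356204-8358546, minus strand), the afternoon repressor, had 15.6, 15.8, 10.6 and 13.5 CPM, from 112, 107, 68 and 72 counts. For PRR5, cores 1 and 2 were close together and core 3 was lowest.

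Among evening genes, TOC1 (AT5G61380, chr5:24674963-24678550, plus strand) had 119.9, 146.8, 131.3 and 117.3 CPM in cores 1 to 4, from 860, 992, 846 and 626 counts. It had the most counts of the members, and its highest core was 1.25-fold its lowest. GI (AT1G22770, chr1:8061751-8067790, plus strand), a large nuclear protein with roles in flowering and the clock, had 25.5, 40.8, 19.4 and 18.9 CPM, from 183, 276, 125 and 101 counts. Core 2 of GI was 2.16-fold the lowest core, core 4, the widest range of the 6 measured genes over all 4 cores. Without core 2 the highest core of GI was 1.36-fold the lowest, less than the 1.49-fold of PRR5.

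The scaffold of the evening complex, ELF3 (AT2G25930, chr2:11058944-11063324, plus strand), had 46.9, 61.2, 60.9 and 48.2 CPM in cores 1 to 4. Cores 2 and 3 were high and cores 1 and 4 low, 1.31-fold apart at most. ELF4 (AT2G40080, chr2:16734294-16734953, minus strand), a small protein that binds ELF3, had 40.3, 36.5, 30.1 and 32.4 CPM, highest in core 1 and lowest in core 3. The ratio of ELF4 to ELF3 per kb was 3.82, 2.65, 2.20 and 2.99 in cores 1 to 4, highest in core 1 and lowest in core 3. TOC1 and ELF3 kept a steadier ratio, between 2.11 and 2.51 per kb in the 4 cores.

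Day-phase genes were lower than evening genes in every core. Within a core, the mean log2 CPM per kb of PRR7 and PRR5 minus that of TOC1, GI, ELF3 and ELF4 was -1.59, -1.55, -1.89 and -1.72 in cores 1 to 4, a mean of -1.69 ± 0.15 (SD, n = 4). The mean log2 level was 2.85 ± 0.33 for the day-phase genes and 4.54 ± 0.21 for the evening genes. Both sets were highest in core 2. Per kb, the split is not one of every gene against every other. GI, an evening gene, had the lowest mean of the 6 measured genes. It lay below PRR5 in 3 of 4 cores and below PRR7 in 4 of 4 cores. This rests on the length term: on CPM without it GI lay above PRR7 in 4 of 4 cores, and day-phase minus evening was -1.56. The difference carries no p, since it is a score over chosen genes, and 3 of 5 day-phase genes but 1 of 5 evening genes were without a usable level. Between the arithmetic means of CPM per kb of the sets, where ELF4 and TOC1 weigh most, it was -2.13 ± 0.21 on the log2 scale.

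**Figure D3:**
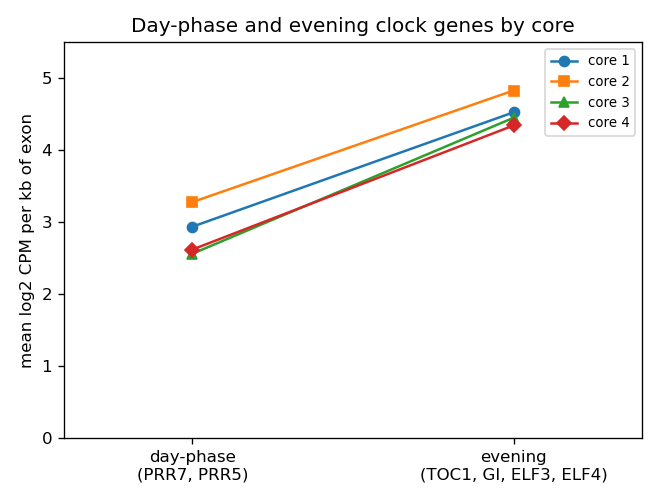
Mean log2 CPM per kb of exon of the day-phase genes (PRR7, PRR5) and the evening genes (TOC1, GI, ELF3, ELF4) in each core, joined by a line per core. The day-phase mean lies below the evening mean in all 4 cores, with day-phase minus evening differences of -1.89 to -1.55.

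PRR7 and GI had nearly the same profile over the cores. Each was highest in core 2 and low in cores 3 and 4, and the ratio of PRR7 to GI per kb was 1.055, 1.046, 1.214 and 1.054 in cores 1 to 4. As a measure of likeness, the root mean square distance between 2 genes' log2 CPM, each centred on its own mean over the 4 cores, was 0.0894 for PRR7 and GI, the smallest of the 15 member pairs, and 0.0895 for TOC1 and ELF3, while GI and ELF3 were farthest apart with 0.41. Of 12770 other genes, 24 lay nearer to GI than PRR7 did, but 557 lay nearer to TOC1 than ELF3 did. With 4 values per gene many genes come close, and the distances are a description.

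The genes nearest to GI were AT1G72220 (distance 0.0359), PUB29 (0.0368), a plant U-box gene, and AT1G13970 (0.042). Nearest to PRR7 were the NAC factor gene NAC076 (0.0209), the GATA factor gene GATA16 (0.0335) and the AT-hook gene AHL1 (0.0414). PUB29 had 44.9, 67.2, 32.8 and 31.5 CPM in cores 1 to 4, and NAC076 had 7.11, 11.4, 6.21 and 5.44 CPM, both highest in core 2. AT1G72220 had only 2.2 to 4.7 CPM and AT1G13970 6.2 to 13.0 CPM. The distances take no account of counting error, so which genes came nearest is uncertain.

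**Figure D4:**
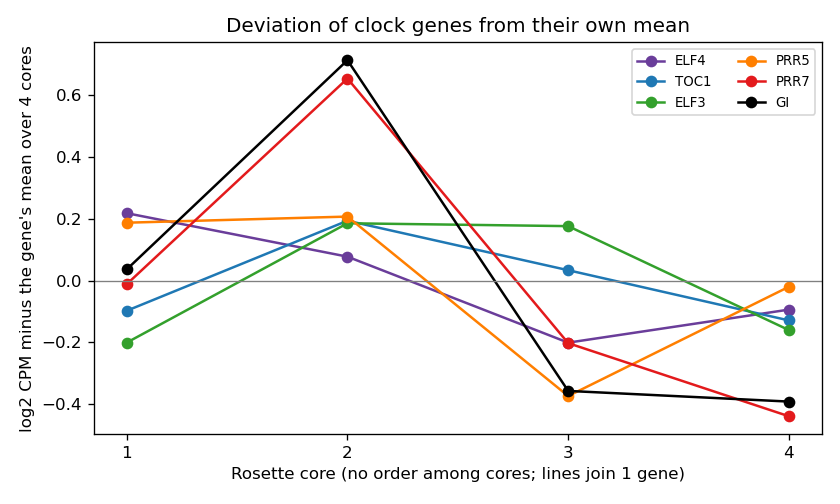
Deviation of log2 CPM from the gene's own mean over the 4 cores, by core, for the 6 measured clock genes; lines join the values of 1 gene. PRR7 and GI stand apart from the others in core 2 and are below their means in cores 3 and 4, TOC1 and ELF3 run close together, and ELF4 is highest in core 1.

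Some tissue markers also differed in core 2. The shoot meristem genes STM and KNAT1 were highest there: STM had 193.1, 315.4, 97.0 and 161.6 CPM in cores 1 to 4, and KNAT1 had 152.3, 287.2, 98.4 and 108 CPM. The third apex marker, PDF1 of the epidermis, was lowest in core 2 with 678 CPM, against 1085 to 1139 CPM in the other cores. The green leaf markers LHCB1.3 and PSBO1 were also lowest in core 2, with 19330 and 2332 CPM. Their part in the profiles of PRR7 and GI was not tested, and in whole tissue fewer cells of a type and less RNA per cell cannot be told apart. EXPA7 and RHD6, markers of root hairs, totalled 0 and 1 counts, and the seed genes SESA4 and OLEO2 had 0 counts, so the libraries carried the markers of a green shoot apex and lacked those of root hair and seed.

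Variation between cores beyond counting noise was found for 5 of the 6 measured genes, where 64.0% of the 12771 genes tested passed the same test, so the members' share is not far from that of genes at large. The test was a chi-square test of counts given the scaled library sizes, with Benjamini-Hochberg adjustment over all genes tested and a threshold of 0.05. The adjusted p was 1.59e-15 for GI, 3.25e-10 for PRR7, 1.83e-05 for TOC1, 0.000166 for ELF3 and 0.0161 for ELF4. PRR5 did not pass (adjusted p = 0.0559 in the chi-square test). The calls for GI and ELF3 held without any 1 core. Those for PRR7 and TOC1 were lost without core 2 (adjusted p = 0.133 and 0.12, chi-square test), and that for ELF4 without core 1 or core 3 (0.174 and 0.107). PRR5 passed without core 4 (0.0283) and with library totals in place of TMM (0.0339). Without core 2 the count was 3 of 6, where 52.3% of all genes tested passed.

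None of the members passed the test for varying more than genes of its own level, but nor did any other of the 12771 genes tested. The outcome therefore does not set the members apart from other genes. The SD of log2 CPM was 0.51 for GI and 0.47 for PRR7, larger than that of 89.2% and 86.1% of the genes tested, and 0.15 for TOC1, larger than that of 22.3%. Without core 2 it was 0.25 for GI and 0.22 for PRR7. PRR5 had 0.27, ELF3 0.21 and ELF4 0.185, and the median of the 6 was 0.24, as it was over all genes tested. In edgeR's quasi-likelihood fit the adjusted p was 0.977 for GI and 0.984 for PRR7, with unadjusted p of 0.0668 and 0.1 (edgeR). That fit called 0 of 12771 genes (0%), with 661 at an unadjusted p under 0.05, none of them a member, and DESeq2 marked 70 genes and no member as dispersion outliers.

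**Figure D5:**
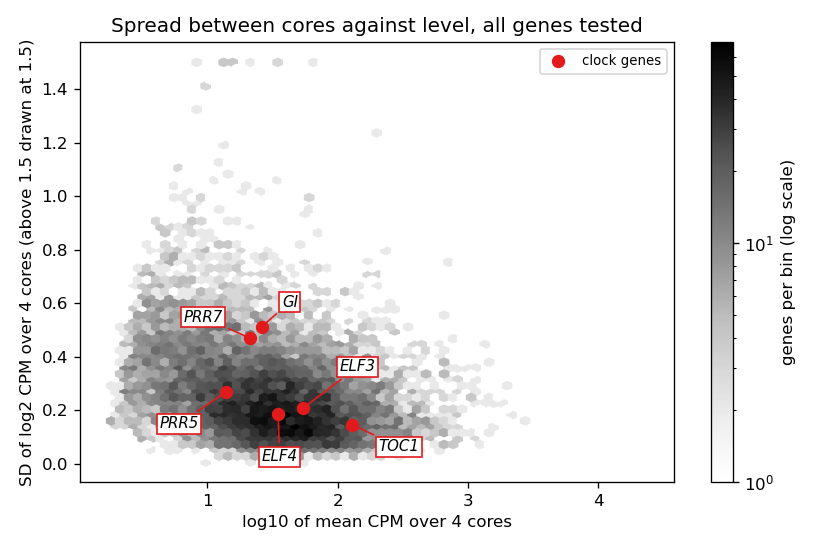
SD of log2 CPM over the 4 cores against log10 of mean CPM for the 6 measured clock genes (red) and for the 12771 genes tested (grey bins, darker for more genes). GI and PRR7 lie above the dense part of the cloud, with an SD of 0.51 and 0.47, and the other 4 lie within it.

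Of 53 further genes of the clock pathway, 24 have 1 transcript model, 22 passed the filter on low counts and 13 of these 22 varied beyond counting noise in the chi-square test, against 64.0% of all genes tested. Among dawn and morning partners 3 of 10 could be measured and 1 of 3 varied. RVE2, a relative of CCA1, had 24.2 CPM per kb and varied (23.0, 25.6, 27.3 and 18.7 CPM in cores 1 to 4, chi-square adjusted p = 0.0289), a call lost without core 3 (0.0781) or core 4 (0.35). RVE1, which links the clock to auxin, averaged 4.19 CPM, and LNK3, of a family of coactivators that bind RVE8, averaged 2.89 CPM and was highest in core 2, with 4.14 CPM.

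Of 9 partners of the afternoon and evening 2 could be measured, and neither passed the chi-square test, which 64.0% of all genes tested passed. FKF1, a blue light receptor and F-box protein that acts with GI on flowering time and is known to peak in the afternoon, had 36.8, 38.2, 36.3 and 32.8 CPM in cores 1 to 4 (adjusted p = 0.528, chi-square test). BOA, a close relative of LUX, had 49.1, 57.3, 54.8 and 47.0 CPM (adjusted p = 0.064, chi-square test, and 0.0108 with library totals), but 45.9% of its exon length lies under a gene of the opposite strand, whose reads it may share. BOA, like TOC1, was highest in core 2 and lowest in core 4.

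Components that modify the clock or its proteins had the highest level of the lists, with a median of 39.7 CPM per kb over 4 of 12, against 14.0 CPM per kb over the 6 measured members and 16.9 CPM per kb over all genes tested. CHE, a TCP factor that represses CCA1, had 90.9, 74.7, 99.4 and 96.3 CPM and was lowest in core 2 (adjusted p = 2.46e-05, and 0.434 without core 2, chi-square test). LWD1, a WD-repeat protein that activates clock genes, had an SD of log2 CPM of 0.06, with 67.1 to 73.7 CPM, and its copy LWD2 had 44.2 to 53.7 CPM. XCT, which affects the period of the clock, averaged 41.1 ± 5.51 CPM (SD, n = 4) and varied (adjusted p = 0.00386, chi-square test), a call lost without core 1 (0.0722) or core 3 (0.162).

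A relative of ELF4 had a profile close to that of GI. ELF4-L2 had 31.9, 41.6, 19.1 and 19.5 CPM in cores 1 to 4 (adjusted p = 5.54e-16, chi-square test), highest in core 2, and its distance from GI was 0.135, with 84 genes nearer. ELF4-L3 was highest in core 1, as ELF4 was, with 8.65 CPM, and lowest in core 3, with 3.88 CPM (adjusted p = 0.00583, chi-square test), a call lost without core 1 (0.328) or core 3 (0.0596). ELF4-L1 averaged 0.44 CPM, at the limit of counting, and 74.3% of its exon length lies under an opposite-strand gene.

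Among genes of photoperiod and growth output, 6 of 10 could be measured, 5 passed the filter and 2 of these 5 varied. Of all genes tested, 64.0% passed the same chi-square test. CDF3, of the CYCLING DOF FACTOR family that GI and FKF1 mark for degradation, had 23.4, 20.4, 17.2 and 13.9 CPM in cores 1 to 4 (adjusted p = 0.00199, and 0.0681 without core 4, chi-square test). AT1G69570 had 17.6, 13.2, 6.83 and 9.56 CPM (adjusted p = 2.68e-07, chi-square test), with 59.9% of its exon length under an opposite-strand gene. COL1, a relative of CONSTANS, averaged 20.4 CPM, but all of its exon length lies under an opposite-strand gene, and COL2 averaged 9.43 CPM with 31.8% so covered. FT, the florigen gene that the photoperiod pathway switches on in leaves, averaged 0.148 CPM, below the limit that a count of 0 allows in any core.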

How the data were processed

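Per the labels' protocols, ribosomal RNA was removed from total RNA with a kit for plant leaves, and strand-specific Ion Torrent libraries were read on an Ion Proton with Torrent Suite 4.0.2. The submitters' processing notes name HTSeq and TAIR10, while aligner and counting settings were not given in the sources used here. Values as deposited by the authors are raw counts per transcript model, not normalized, for 40745 models of 32678 loci.

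From these counts, models were summed per locus, loci with 2 or more models were set apart, and 26516 nuclear loci with 1 model were scaled with TMM (edgeR 4.0.16, R 4.3.3). A prior count of 0.5 was added on the log2 scale. The edgeR filter on low counts (minimum 10, single group) left 12771 genes, which entered the chi-square test and the quasi-likelihood fit of an intercept; both were tested on simulated data. DESeq2 1.42.0 gave alternatives. Exon lengths, coordinates, symbols and sequences come from the TAIR10.1 assembly of RefSeq, whose genome and annotation were used together. The exon length of a locus is the union of all exons annotated for it there. It may differ from the length of the model that was counted, and values per kb depend on it. RefSeq calls LUX PCL1.

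The members and lists were chosen with earlier results of these data known. The text names all 10 members, the 2 highest and 2 lowest genes per kb and the 2 with the largest SD of each list, and the 3 genes nearest to each of the 2 members of largest SD. NAC076 has 8.7% of its exon length under an opposite-strand gene.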

Additional observations from a re-analysis of the deposited data

Results flagged for a closer look

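The ratio of PRR7 to GI per kb was 1.21 in core 3, against 1.046 to 1.055 in the other 3 cores. The gap to the nearest core took 0.951 of the whole range, above Dixon's critical value for 4 samples. It was 1 of 44 values examined, and chance flags about 1 in 20 groups. In core 3 the ratio rests on 114 counts of PRR7 and 125 of GI, and Dixon's test takes no account of counting error.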

How the results depend on the processing

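The order ELF4, TOC1, ELF3, PRR5, PRR7 and GI per kb held without any 1 core. Without 1 core, 3 to 6 members and 8 to 13 genes of the pathway lists varied beyond counting noise, while the share of all genes tested ran from 49.8% without core 3 and 52.3% without core 2 to 58.2% without core 4. With all nuclear loci and models summed, the 4 loci with several models pulled the median of the members to 6.21 CPM per kb and the difference of day-phase and evening genes to -4.15, since these loci hold few counts. Over summed CPM per kb that difference was -3.13, which sets a sum of 2 day-phase genes against a sum of 4 evening genes. Between means of CPM per kb, an alternative chosen after seeing the data, it was -2.13. With no filter on low counts edgeR's fit called 431 genes, none of them a member. In a separate setting DESeq2 marked 70 genes as dispersion outliers, none of them a member. The cause of these calls was not tested. No paired analysis was possible because all cores belong to 1 group. Of the 6 measured genes PRR5 had the fewest counts, 68 to 112 per core.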

Other observations

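Of the 8 light input genes 6 could be measured, and each of these 6 was highest in core 3. The share of all genes tested that were highest in core 3 was not counted, so this is a description only. Each of the 6 varied beyond counting noise (chi-square test, 6 of 6, where 64.0% of all genes tested passed). CRY1, a blue light receptor, had 139.6, 139.1, 195.3 and 157.3 CPM in cores 1 to 4 (adjusted p = 5.35e-18, chi-square test). The red light receptor gene PHYC had 25.7, 32.9, 47.7 and 35.2 CPM, and PHYE had 43.5, 59.0, 62.7 and 52.7 CPM. PHYB had 54.15 CPM in core 2 and 54.18 CPM in core 3, values that are close to equal, and lower values in the other cores. PHYD averaged 24.3 CPM and COP1, a ubiquitin ligase that acts below these receptors, 32.7 CPM. The calls for PHYD and PHYE were lost without core 1 (adjusted p = 0.0693 and 0.12, chi-square test), and those for PHYD and COP1 without core 3 (0.374 and 0.171).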
